A study of Mus musculus with 16 samples.

Results

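The genes of respiratory complexes II to V and of cytochrome c were followed in the interscapular brown fat of C57BL/6J mice. Members were all genes of the deposited tables whose symbol begins with Sdha to Sdhd, Sdhaf, Uqcr, Uqcc, Cox and a digit, or Atp5, together with Cyc1 and Cycs, without pseudogenes. The rule found 62 of 15350 genes and left out 1 pseudogene. They were 4 subunits of complex II, 9 of complex III, 15 of complex IV and 16 of complex V, the carrier cytochrome c, and 17 assembly or accessory factors. Cox20, Cox7b2 and Cox8c have no row in the tables and were not analysed here. Symbols follow an older nomenclature, in which for example Atp5g1 is the present Atp5mc1.

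The 16 libraries formed 4 groups of 4. Ucp1-knockout (KO) mice received isoproterenol, an agonist of beta-adrenergic receptors, by implanted minipump (KO isoproterenol). Further KO mice received saline by the same route (KO saline). Wild-type (WT) mice received isoproterenol (WT isoproterenol) or saline (WT saline). The dose was 60 mg/kg/day for 3 days, and the tissue was taken at the end of the infusion. The series aimed at the activation of brown fat in both genotypes. The labels give neither the age and sex of the mice nor the design of the knockout allele, and do not say whether each library is 1 animal, so p-values measure the spread between these libraries.

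Complex II oxidises succinate and passes the electrons to ubiquinone. Complex III passes them on to cytochrome c, and complex IV (cytochrome c oxidase) passes them to oxygen. Complex V is the ATP synthase, which makes ATP from the proton gradient that the chain builds. Brown fat mitochondria hold much respiratory chain and, relative to it, little ATP synthase, and uncoupling protein 1 lets protons return as heat. Several subunits of complex IV exist as a liver or widely expressed isoform and a heart and muscle isoform, and brown fat is known to use both. Only products of nuclear genes were measured.

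Depth ran from 12914590 to 20986735 reads per library in KO isoproterenol and from 9004515 to 14381797 in KO saline. In WT it ran from 11093784 to 16720338 under isoproterenol and from 10479767 to 12241512 under saline. Libraries of a group correlated across genes at 0.852 to 0.957 in KO isoproterenol, against 0.964 to 0.974 in KO saline. In WT the correlations were 0.958 to 0.985 under isoproterenol and 0.949 to 0.977 under saline. Among the KO isoproterenol libraries most members were lowest in replicate 1 and highest in replicate 4, as given below. Reads on Ucp1 came to 19.0, 268, 848 and 2129 counts per 1000000 reads (CPM) in KO isoproterenol, 1118, 588, 1156 and 410 in KO saline, 8905, 11662, 17655 and 18458 in WT isoproterenol and 2298, 3449, 3220 and 3339 in WT saline. Every KO library lay below every WT library, although a count over the whole gene does not show which part of it was disrupted.

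Markers of the cells in the tissue moved with the groups, and their part in the results below was not tested. Over 15 macrophage markers, all measured, summed levels were 1538 to 11871 CPM in KO isoproterenol, against 422 to 748 in KO saline, and in WT 684 to 1244 under isoproterenol and 305 to 754 under saline. Over 7 neutrophil markers they were 71.7 to 468 CPM in KO isoproterenol and 7.29 to 11.7 in KO saline. The 10 pan-adipocyte markers summed to 6350, 17432, 29571 and 50948 CPM in KO isoproterenol, against 27993 to 29910 in KO saline. The 13 brown adipocyte markers summed to 3553, 12254, 19902 and 38262 CPM in KO isoproterenol, against 20813 to 21821 in KO saline. That list holds Cox8b, itself a member, and shares Adipoq, Cidec, Fabp4, Plin1 and Pparg with the pan-adipocyte list. The brown adipocyte sum is therefore independent neither of the members nor of the pan-adipocyte sum. In both sums replicates 1 and 2 lay below every KO saline library and replicate 4 above. Replicate 3 lay below in the brown adipocyte sum and inside in the pan-adipocyte sum. As a mean of log2 CPM centred per gene, the pan-adipocyte list gave -2.25, -1.13, -0.05 and 0.33 in KO isoproterenol. KO saline spanned 0.12 to 0.43, so replicate 4 lay inside and replicate 3 below. The brown adipocyte list gave -3.18, -0.67, 0.113 and 0.905, against 0.106 to 0.641 in KO saline. By limma 5 of the 10 pan-adipocyte markers fell and 0 rose (median log2 change -1.16). Where the brown adipocyte sum was lower, fewer brown adipocytes and less RNA per brown adipocyte cannot be told apart in bulk tissue. Endothelial markers (8) summed to 1626 to 1795 CPM in KO isoproterenol and 1084 to 1539 in KO saline, and lymphocyte markers (8 measured) to at most 25.0 CPM in any library.

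Respiratory genes fell broadly in KO brown fat under isoproterenol. The 62 members together took 0.641%, 1.68%, 1.96% and 3.10% of the reads in the 4 KO isoproterenol libraries. They took 4.30%, 5.15%, 4.30% and 4.87% in KO saline, 5.15%, 4.82%, 4.84% and 5.31% in WT isoproterenol, and 4.15%, 4.84%, 4.65% and 4.32% in WT saline. KO isoproterenol thus lay apart from the other 3 groups, which spanned a common range. In limma, with p-values adjusted over all 15350 genes and a call at an adjusted p under 0.05, 52 members fell and 1 rose in KO isoproterenol against KO saline. Of all genes 24.8% were called lower and 23.8% higher in that comparison. The median log2 change was -1.50 over the members and -0.002 over all genes. In 41 members every KO isoproterenol library lay below every KO saline library, and in 1 member above, where this held for 19.3% and 18.1% of all genes.

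Every class had a negative median. All 4 subunits of complex II fell (median log2 change -2.07), as did all 9 of complex III (-1.79), 13 of 15 of complex IV (-1.62) and 14 of 16 of complex V (-1.52). Of the 17 assembly and accessory factors 11 fell (-0.85). Each class can be read as a score, the mean log2 CPM of its genes after centring each gene on the 16 libraries. The complex II score was -2.80, -2.04, -1.12 and -0.25 in KO isoproterenol, against 0.33 to 0.78 in KO saline. For complex V it was -1.72, -0.97, -0.57 and -0.11, against 0.04 to 0.33 in KO saline. In KO isoproterenol replicate 4 the score over all members was -0.15, and the lowest KO saline library was at 0.13.

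**Figure D1:**
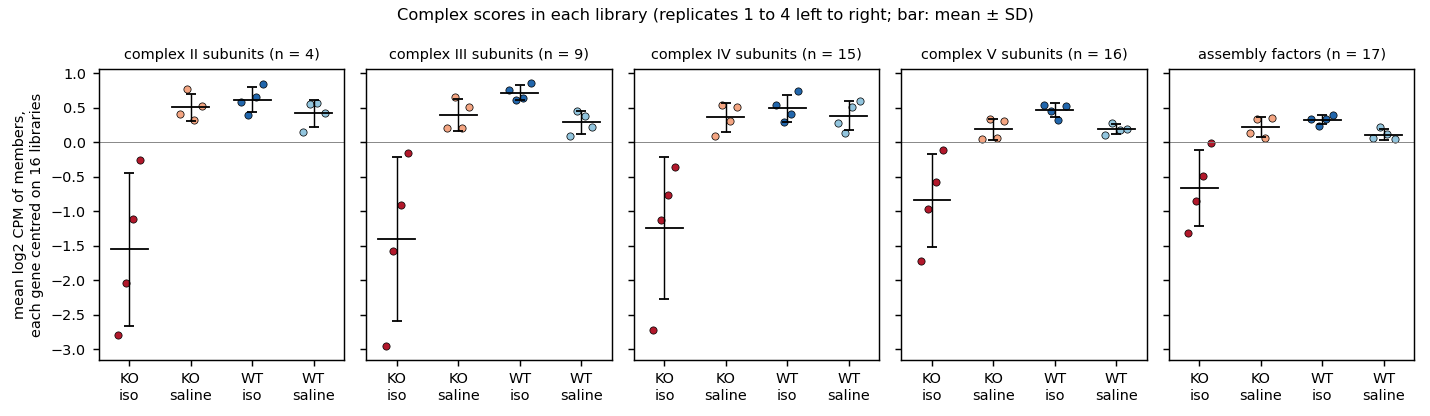
Score of each complex in every library (points) with the group mean and SD (bars, n = 4). The y axis is the mean log2 CPM of the subunits, or of the assembly factors, after centring each gene on the 16 libraries, and the KO isoproterenol libraries lie below the other groups in every panel.

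The KO isoproterenol libraries differed widely among themselves. Replicate 1 was the lowest of the 4 in 55 of 62 members and replicate 4 the highest in 57. In replicates 1, 2, 3 and 4, 59, 58, 54 and 42 members lay below all KO saline libraries, against 39.7%, 37.4%, 35.8% and 33.7% of all genes. Without replicate 1, 48 members fell and 2 rose (Atp5g1 and Atp5g3), with a median of -1.11, when 23.3% of all genes were called lower and 22% higher. With only the 8 KO libraries in the fit, 38 fell and 1 rose, when 17.5% and 16.3% of all genes did. The 14 calls lost in that fit had adjusted p of 0.053 to 0.167. They were Atp5b, Atp5f1, Atp5g2, Atp5j, Atp5mpl, Cox10, Cox7a2, Cycs, Sdhaf3, Sdhaf4, Uqcc2, Uqcrc2, Uqcrfs1 and Uqcrh. Without replicate 1 the log2 change was smaller by more than 1.5 times in 8 of the 53 called members: Atp5j, Atp5mpl, Cox10, Cox4i1, Cox7a2, Cycs, Uqcrfs1 and Uqcrh. Of the 53 calls 48 held whichever library was left out, while those of Atp5g2, Atp5j, Atp5mpl, Cox10 and Cycs were each lost when any of 3 to 15 libraries was missing.

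The 4 subunits of complex II fell by 1.74 to 2.35 on the log2 scale. Sdhb, the iron-sulfur subunit, had 119, 245, 375 and 644 CPM in KO isoproterenol and 1385, 1798, 1190 and 1615 CPM in KO saline. The groups were wide apart, and the log2 change was -2.35 (SE 0.37, adjusted p = 0.00015). Sdha, the flavoprotein that oxidises succinate, stood at 265, 475, 952 and 1847 CPM in KO isoproterenol, against 2992 to 3745 CPM in KO saline (log2 change -2.24, SE 0.45, adjusted p = 0.00088). The membrane anchors Sdhc and Sdhd fell by 1.91 and 1.74 on the log2 scale (adjusted p = 0.00052 and 0.0026). Among the 4 assembly factors of the complex, Sdhaf1, Sdhaf3 and Sdhaf4 fell by 0.85 to 1.20 on the log2 scale, while Sdhaf2, which helps to attach flavin to Sdha, had a log2 change of -0.25 (adjusted p = 0.067).

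Sdhd is shown with its promoter because it alone among the members holds letters of all 3 motifs searched. Members were matched to RefSeq promoter windows (GRCm38.p6) of 250 bases before and 50 after the start of the gene, and 49 of 62 had one. Of 53 such windows, 39 had their first 40 transcribed bases within a GENCODE M21 coding transcript of the gene. The starts of the others are less certain. Both strands were searched for TCAAGGTCA, the element of the estrogen-related receptors, for GCGC, any 2 bases and GCGC again, a core of NRF1 sites, and for CCGGAAG, a core of GABP and other ETS sites. None of the 3 contains another. In the 250 bases before the start of Sdhd (chr9:50603850-50604099, minus strand), printed 5′ to 3′, capitals mark the NRF1 core and, closer to the start, the ETS core on the opposite strand. Its estrogen-related receptor element lies past the start and is not in the printed stretch.
Sdhd: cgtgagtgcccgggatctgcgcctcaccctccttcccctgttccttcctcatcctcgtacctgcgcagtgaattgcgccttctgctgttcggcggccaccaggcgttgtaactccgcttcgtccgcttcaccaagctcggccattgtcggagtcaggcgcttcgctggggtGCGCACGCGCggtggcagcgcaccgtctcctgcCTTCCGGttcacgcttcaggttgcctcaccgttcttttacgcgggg

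The estrogen-related receptor element was in 2 members (4.08%), Sdhd and Atp5g3, against 0.377% of 17491 genes with a window. The NRF1 core was in 13 members (26.5%), against 9.61% of all genes. The ETS core was in 19 members (38.8%), against 12.9%. These shares are descriptions of letters in a window. Of the factors that bind such sites, Esrra fell in KO isoproterenol, with 49.2, 68.6, 109 and 158 CPM against 224 to 294 CPM in KO saline (log2 change -1.54, adjusted p = 0.00027). Nrf1 rose, with 33.2, 30.1, 28.2 and 25.9 CPM in KO isoproterenol against 17.7 to 21.4 CPM in KO saline (log2 change 0.58, adjusted p = 0.0014). Gabpa had a log2 change of -0.09 (adjusted p = 0.75).

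In complex III the metal-bearing subunits and the core and small subunits all fell. Cyc1, cytochrome c1, had 114, 300, 560 and 1051 CPM in KO isoproterenol and 1763, 2244, 1610 and 1938 CPM in KO saline. It changed by -2.32 on the log2 scale (SE 0.47, adjusted p = 0.00093), the most of the complex. Uqcrfs1, the Rieske iron-sulfur protein, had 92.7, 284, 563 and 1033 CPM in KO isoproterenol and 928, 1293, 955 and 1043 CPM in KO saline. Its replicate 4 reached the saline range, and its log2 change was -1.57 (SE 0.50, adjusted p = 0.017), or -0.93 (adjusted p = 0.024) without replicate 1. The core protein Uqcrc2 fell by 1.79 on the log2 scale (adjusted p = 0.0079), and the hinge protein Uqcrh changed least, by -1.13 (adjusted p = 0.016), or by -0.63 (adjusted p = 0.0076) without replicate 1.

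The mobile carrier cytochrome c was called only just. Cycs, the somatic gene, had 11.7, 51.0, 57.1 and 107 CPM in KO isoproterenol and 87.2, 105, 89.6 and 92.3 CPM in KO saline. Replicate 4 exceeded every KO saline library and replicate 1 lay far below the rest. The log2 change was -1.09 (SE 0.44, adjusted p = 0.049). It was -0.46 (adjusted p = 0.068) without replicate 1, and the call was lost in 15 of the 16 fits that each left out 1 library. The transcripts of Cycs also share 26.1% of their windows of 75 bases, the read length, with transcripts of other genes, so the count is uncertain.

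Within complex IV the heart and muscle isoforms of subunits 7A and 8 had the lowest log2 changes. Cox8b, the heart and muscle isoform of subunit 8, had 10.5, 134, 199 and 349 CPM in KO isoproterenol and 1136, 1422, 997 and 1413 CPM in KO saline. Its log2 change of -3.63 was the lowest of the 62 members (SE 0.72, adjusted p = 0.00085), and without replicate 1 it was -2.54 (adjusted p = 3.2e-06). Cox8a, the liver isoform, had 128, 352, 463 and 666 CPM in KO isoproterenol and 936, 1084, 966 and 1253 CPM in KO saline (log2 change -1.62, SE 0.36, adjusted p = 0.0019). Cox7a1, the heart and muscle isoform of subunit 7A, had 8.02, 65.3, 124 and 233 CPM in KO isoproterenol and 442, 617, 462 and 681 CPM in KO saline. It changed by -3.12 (SE 0.68, adjusted p = 0.0017), or -2.13 (adjusted p = 6.1e-05) without replicate 1. Cox7a2, the liver isoform, had 90.9, 239, 245 and 377 CPM in KO isoproterenol and 392, 529, 420 and 509 CPM in KO saline (log2 change -1.12, SE 0.30, adjusted p = 0.0072, and -0.71 without replicate 1). None of these 4 genes overlapped between the 2 groups.

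Compared per kilobase of transcript, the heart and muscle isoform led in both pairs under saline and trailed in KO isoproterenol. Cox8b averaged 481 ± 392 CPM per kb in KO isoproterenol and 3449 ± 585 in KO saline, and Cox8a 731 ± 408 in KO isoproterenol and 1927 ± 262 in KO saline (SD, n = 4 each). Cox7a1 averaged 274 ± 245 CPM per kb in KO isoproterenol and 1400 ± 298 in KO saline, and Cox7a2 361 ± 178 in KO isoproterenol and 702 ± 102 in KO saline. In WT saline Cox8b stood at 3565 ± 399 CPM per kb and Cox8a at 1962 ± 216, while Cox7a1 stood at 1321 ± 143 and Cox7a2 at 696 ± 62.1.

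The ratio of the isoforms within a library does not depend on scaling. The log2 ratio of Cox7a1 to Cox7a2, in reads, was -3.50, -1.87, -0.98 and -0.69 in KO isoproterenol, against 0.17, 0.22, 0.14 and 0.42 in KO saline. In WT it was 0.24, 0.20, 0.34 and 0.58 under isoproterenol and -0.01, 0.13, 0.31 and 0.27 under saline. The log2 ratio of Cox8b to Cox8a was -3.60, -1.39, -1.22 and -0.93 in KO isoproterenol, against 0.28, 0.39, 0.04 and 0.17 in KO saline. In WT it was 0.31, 0.36, 0.18 and 0.41 under isoproterenol and 0.10, 0.24, 0.35 and 0.32 under saline. Both ratios thus lay below every other library in all 4 KO isoproterenol libraries. An exact two-sided permutation test over the 70 arrangements of 4 against 4 libraries gave p = 0.0286 for each against KO saline, the smallest it can give. The difference of mean log2 ratio was -2.0 for both subunits. Over the 28 ratio tests made (7 pairs, 4 comparisons) the adjusted p was 0.1, so none passed. With that smallest p, an adjusted p under 0.05 would have needed most of the 28 tests to reach it. Since 8 did, the adjusted p cannot decide whether the ratios differed.

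These 2 pairs are shown with the 250 bases before their starts, because paralogs that encode the same subunit changed by different amounts. The sequences are from RefSeq (GRCm38.p6), 5′ to 3′ on the strand of each gene: Cox8b at chr7:140900447-140900696 (minus), Cox8a at chr19:7217617-7217866 (minus), Cox7a1 at chr7:30183921-30184170 (plus) and Cox7a2 at chr9:79759854-79760103 (minus). Capitals in Cox8a mark the first 5 bases of an ETS core on the opposite strand, whose last 2 bases lie past the start. Cox8a holds another such core past the start, while the windows of Cox8b, Cox7a1 and Cox7a2 hold none of the 3 motifs.
Cox8b: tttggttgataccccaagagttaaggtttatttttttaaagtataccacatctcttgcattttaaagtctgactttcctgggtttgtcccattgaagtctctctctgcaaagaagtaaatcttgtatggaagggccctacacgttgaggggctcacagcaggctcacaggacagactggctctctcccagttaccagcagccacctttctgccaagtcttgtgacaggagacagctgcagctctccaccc
Cox8a: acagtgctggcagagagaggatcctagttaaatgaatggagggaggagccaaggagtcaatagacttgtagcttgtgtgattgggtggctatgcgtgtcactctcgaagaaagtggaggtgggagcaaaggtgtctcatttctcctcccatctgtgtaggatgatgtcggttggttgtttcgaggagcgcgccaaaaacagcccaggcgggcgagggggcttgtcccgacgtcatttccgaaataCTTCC
Cox7a1: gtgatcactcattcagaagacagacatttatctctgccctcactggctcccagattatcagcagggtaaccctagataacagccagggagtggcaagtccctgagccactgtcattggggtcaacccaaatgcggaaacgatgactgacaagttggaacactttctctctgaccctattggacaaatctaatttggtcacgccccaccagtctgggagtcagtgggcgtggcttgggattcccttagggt
Cox7a2: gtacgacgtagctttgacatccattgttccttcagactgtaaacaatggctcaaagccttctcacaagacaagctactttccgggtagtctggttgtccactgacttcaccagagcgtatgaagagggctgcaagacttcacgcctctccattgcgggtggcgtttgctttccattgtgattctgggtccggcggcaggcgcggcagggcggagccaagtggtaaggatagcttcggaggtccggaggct

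The remaining isoform pairs of complex IV were dominated by the widely expressed form. Cox4i1 averaged 867 ± 492 CPM per kb in KO isoproterenol and 2109 ± 222 in KO saline, against 9.05 ± 1.15 and 8.95 ± 0.70 for Cox4i2, the lung isoform (SD, n = 4 each). Cox4i1 fell by 1.53 on the log2 scale (adjusted p = 0.0041), and by 1.01 without replicate 1, whereas Cox4i2 had 7.44, 7.20, 6.24 and 5.64 CPM in KO isoproterenol and 6.91, 6.54, 5.84 and 6.95 CPM in KO saline (log2 change 0.01, adjusted p = 0.97). The log2 ratio of Cox4i2 to Cox4i1 was higher in all 4 KO isoproterenol libraries, by 1.54 on average (exact p = 0.0286, adjusted p = 0.1). Cox6b1, the widely expressed subunit 6B, and Cox6b2, the testis isoform, fell by 1.48 and 1.38 (adjusted p = 0.0049 and 0.00043).

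Cox6a2, the heart and muscle isoform of subunit 6A, varied more between libraries than between groups. It had 0.79, 3.80, 6.82 and 1.78 CPM in KO isoproterenol, 0.89, 5.54, 6.64 and 3.39 in KO saline, 0.71, 0.20, 3.97 and 9.98 in WT isoproterenol and 1.98, 0.045, 5.26 and 42.5 in WT saline. Skeletal muscle markers (20 measured) varied in the same manner. They summed to 37.0, 938, 805 and 133 CPM in KO isoproterenol, 124, 1138, 1106 and 122 in KO saline, 353, 112, 1453 and 3853 in WT isoproterenol and 506, 153, 1860 and 11752 in WT saline. The library highest in both was WT saline replicate 4, and the part of muscle in the Cox6a2 values was not tested. Cox7a1 and Cox8b did not share this pattern: in that library they had 494 and 1175 CPM, inside the range of the other WT saline libraries. Cox6a1, the liver isoform, fell by 1.73 in KO isoproterenol (adjusted p = 0.0022).

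**Figure D2:**
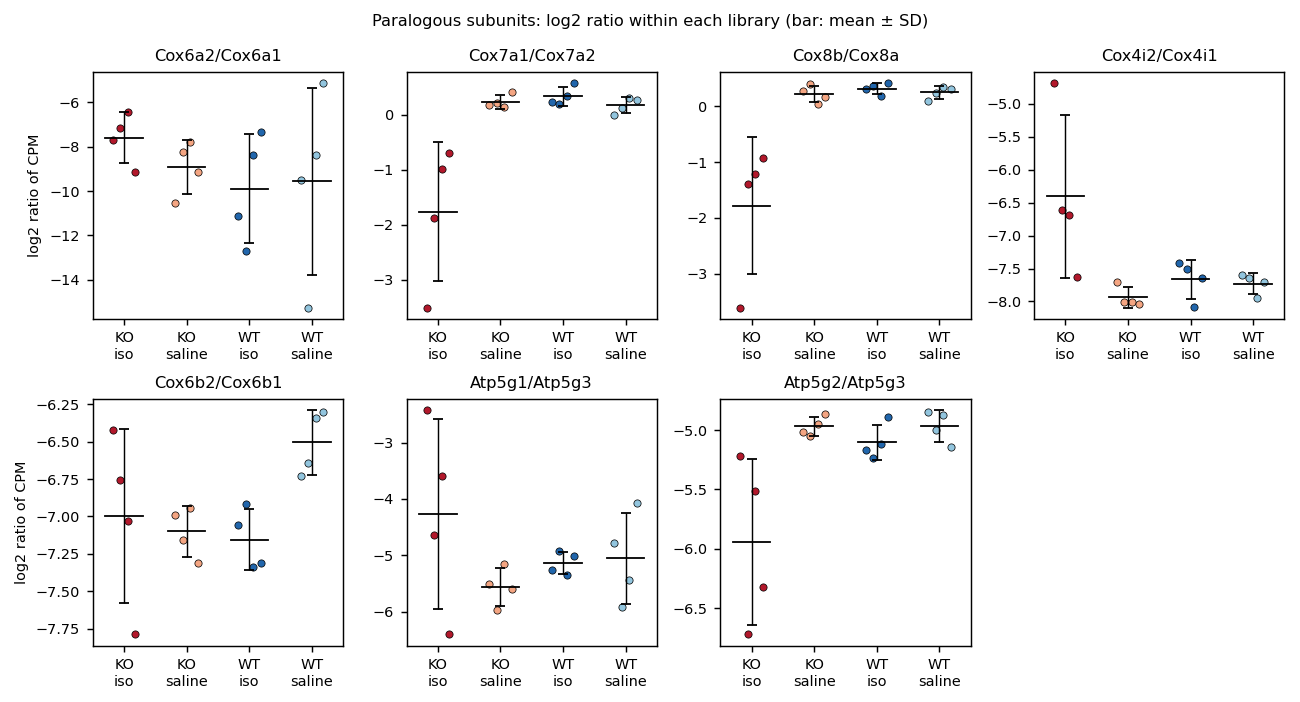
Log2 ratio of the CPM of 2 paralogous subunits within each library (points, replicates 1 to 4 from left to right), with the group mean and SD (bars, n = 4). Cox7a1/Cox7a2 and Cox8b/Cox8a lie below 0 in the 4 KO isoproterenol libraries, at -0.69 or less, and Cox6a2/Cox6a1 is scattered in every group.

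In complex V the subunits of the catalytic head fell, while the c subunit genes moved in different directions. Atp5b, the catalytic beta subunit and the most abundant member, had 840, 2790, 3472 and 7136 CPM in KO isoproterenol and 9716, 10388, 9306 and 9839 CPM in KO saline. The groups did not overlap, and the log2 change was -1.83 (SE 0.50, adjusted p = 0.0069). Atp5k, subunit e of the membrane part, had 59.0, 80.3, 167 and 211 CPM in KO isoproterenol and 318, 431, 327 and 410 CPM in KO saline (log2 change -1.70, SE 0.31, adjusted p = 0.00041). Atp5j, coupling factor 6, had 92.2, 121, 135 and 172 CPM in KO isoproterenol and 156 to 185 CPM in KO saline. Its change of -0.42 (adjusted p = 0.035) was the smallest called in the complex and was lost without replicate 1, at -0.27 (adjusted p = 0.11).

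The ring of c subunits is encoded by Atp5g1, Atp5g2 and Atp5g3, whose mature proteins are identical. Atp5g3 was the main transcript, with 168, 564, 287 and 698 CPM in KO isoproterenol and 244, 332, 248 and 286 CPM in KO saline. Its groups overlapped, and its log2 change of 0.43 (SE 0.32, adjusted p = 0.29) became 0.81 (adjusted p = 0.01) without replicate 1. Atp5g1 had 31.2, 22.6, 23.7 and 8.25 CPM in KO isoproterenol and 5.35, 5.29, 6.93 and 5.92 CPM in KO saline. Every KO isoproterenol library lay above every KO saline library, and its log2 change of 1.72 (SE 0.38, adjusted p = 0.0019) was the only call upward. Atp5g2 had 4.50 to 8.75 CPM in KO isoproterenol and at least 7.54 CPM in KO saline (log2 change -0.54, adjusted p = 0.027, and 0.085 without replicate 1). The counts of Atp5g1 and Atp5g2 are uncertain. The short coding transcripts of Atp5g1 share 59.6% and 50.4% of their 75-base windows with transcripts of other genes, and those of Atp5g2 share 7.95% to 100%, while those of Atp5g3 share 0%.

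Atp5g3 is shown with its promoter because it was not called while 14 of 16 subunits of complex V fell, and because it is the only other member with the estrogen-related receptor element. The 250 bases before its start (RefSeq, GRCm38.p6, chr2:73911327-73911576, minus strand) hold that element on the opposite strand, in capitals. Atp5g3 is also among the 13 members with the NRF1 core, which is not in the printed stretch.
Atp5g3: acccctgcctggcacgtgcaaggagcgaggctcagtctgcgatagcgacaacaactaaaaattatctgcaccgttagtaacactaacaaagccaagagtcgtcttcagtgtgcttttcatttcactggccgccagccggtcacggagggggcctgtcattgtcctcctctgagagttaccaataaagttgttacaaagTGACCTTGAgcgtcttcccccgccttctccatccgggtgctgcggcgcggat

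Among assembly and accessory factors the response was uneven. Uqcc1, which serves the synthesis and assembly of cytochrome b, had 28.8, 51.5, 81.4 and 136 CPM in KO isoproterenol and 286, 299, 265 and 286 CPM in KO saline (log2 change -2.16, SE 0.32, adjusted p = 9.1e-05). Atp5s, factor B of the ATP synthase, had 5.54, 7.63, 8.59 and 11 CPM in KO isoproterenol and 22.1 to 28.5 CPM in KO saline (log2 change -1.69, adjusted p = 3e-06). Cox14, which acts early in the assembly of complex IV, had 35.7, 55.3, 61.6 and 61.1 CPM in KO isoproterenol and 128, 176, 114 and 120 CPM in KO saline (log2 change -1.35, adjusted p = 3.8e-05). The enzymes of heme A synthesis differed. Cox10 had 14.7, 37.2, 46.2 and 92.8 CPM in KO isoproterenol and 68.4 to 85.1 CPM in KO saline (log2 change -1.0, adjusted p = 0.032; -0.53 and 0.068 without replicate 1). Cox15 had 39.7, 59.5, 74.1 and 135 CPM in KO isoproterenol and 63.8 to 77.4 CPM in KO saline (log2 change -0.03, adjusted p = 0.94).

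**Figure D3:**
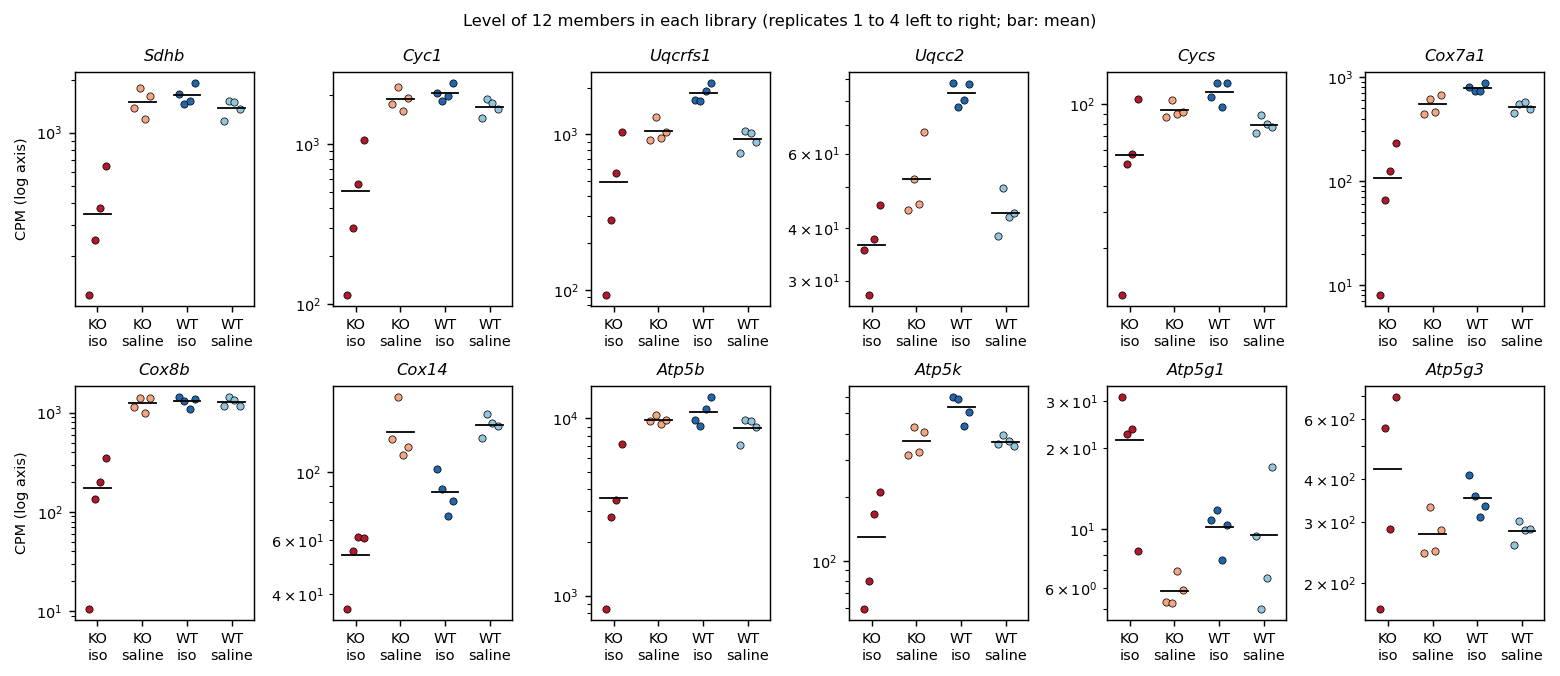
Level of 12 members in each library (CPM, log axis that differs between panels; replicates 1 to 4 from left to right, line: group mean). Cox8b and Cox7a1 drop to 10.5 and 8.02 CPM in KO isoproterenol replicate 1, Uqcc2 is highest in WT isoproterenol, and Atp5g1 is highest in KO isoproterenol.

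In WT brown fat under isoproterenol few members were called. Against WT saline 1 member rose and 2 fell, where 7.6% of all genes were called higher and 8.98% lower. The median log2 change was 0.25 over the members and -0.018 over all genes, and 49 of 62 members had a positive change. Uqcc2, which serves cytochrome b synthesis, had 88.5, 77.3, 80.3 and 87.9 CPM in WT isoproterenol and 38.2, 49.6, 42.4 and 43.3 CPM in WT saline (log2 change 0.95, SE 0.16, adjusted p = 0.001). Cox14 had 103, 87.7, 72.1 and 80.6 CPM in WT isoproterenol and 129, 155, 145 and 141 CPM in WT saline (log2 change -0.74, SE 0.18, adjusted p = 0.012). Atp5s had 16.6, 15.6, 16.1 and 14.7 CPM in WT isoproterenol and 23.1, 27.8, 25.5 and 25.9 CPM in WT saline (log2 change -0.70, SE 0.17, adjusted p = 0.012). None of these 3 overlapped between the groups. Cox14 and Atp5s also fell in KO, whereas Uqcc2 had 35.4, 27.7, 37.6 and 45.3 CPM in KO isoproterenol and 44.1 to 67.5 CPM in KO saline (log2 change -0.52, adjusted p = 0.012).

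The number of WT calls changed with the libraries in the fit. With only the 8 WT libraries fitted, 21 members rose and 3 fell, when 16.3% of all genes were called higher and 15.8% lower. Weights per group gave 13 higher and 3 lower, when 16.3% and 17.3% of all genes were called. The number higher was 7 without KO isoproterenol replicate 1, when 11.5% of all genes were called higher. It was 4 without its replicate 4, when 1548 of 15350 genes were. It was 2 without KO saline replicate 4 or WT saline replicate 1, when 1066 and 887 of the 15350 genes were. In 22 members every WT isoproterenol library lay above every WT saline library, and in 3 below, as did 16.3% and 16.6% of all genes. Same-numbered WT libraries deviated together, and the fit of the 8 WT libraries with the replicate number as a block again gave 21 higher and 3 lower. Of the 15350 genes 2651 were then called higher and 2646 lower. The block over all 16 libraries gave 2 and 2, when 1085 and 1191 of the genes were called.

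The members called in the fit of the WT libraries alone came from every complex. Uqcrfs1 had 1662, 1645, 1891 and 2156 CPM in WT isoproterenol and 765, 1053, 1022 and 896 CPM in WT saline, a log2 change of 0.98 with adjusted p = 0.00051 in that fit and 0.20 in the fit of 16 libraries. Atp5mpl, a small protein of the ATP synthase, changed by 0.67 (adjusted p = 0.00041 in the WT fit, 0.082 over 16 libraries). Cox7a1 had 803, 728, 730 and 887 CPM in WT isoproterenol and 453, 557, 573 and 494 CPM in WT saline (log2 change 0.60, adjusted p = 0.0031 in the WT fit, 0.60 over 16 libraries). Cycs changed by 0.53 (adjusted p = 0.005 and 0.45) and Sdhd by 0.45 (adjusted p = 0.017 and 0.49). Cox15 changed by 0.80 (adjusted p = 0.0039 and 0.059). By contrast Cox8b, with 1439, 1309, 1079 and 1385 CPM in WT isoproterenol and 1155, 1456, 1347 and 1175 CPM in WT saline, changed by 0.02 (SE 0.13, adjusted p = 0.93 in the WT fit, and SE 0.72, adjusted p = 0.99 over 16 libraries). Pan-adipocyte markers summed to 32977 to 38238 CPM in WT mice on isoproterenol and 26319 to 29993 CPM in those on saline. Brown adipocyte markers summed to 22645 to 25314 CPM in WT mice on isoproterenol, against 18715 to 21220 on saline, and neutrophil markers to 22.2 to 39.8 CPM, against 9.83 to 14.9 on saline. The ranges of these sums did not overlap. A sum follows its most abundant genes, and over the 10 pan-adipocyte markers the median log2 change was -0.20, with 1 called higher and 0 lower. As a mean of centred log2 CPM that list overlapped, at 0.17 to 0.35 under isoproterenol and 0.19 to 0.36 under saline. The part of these markers in the WT values was not tested.

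**Figure D4:**
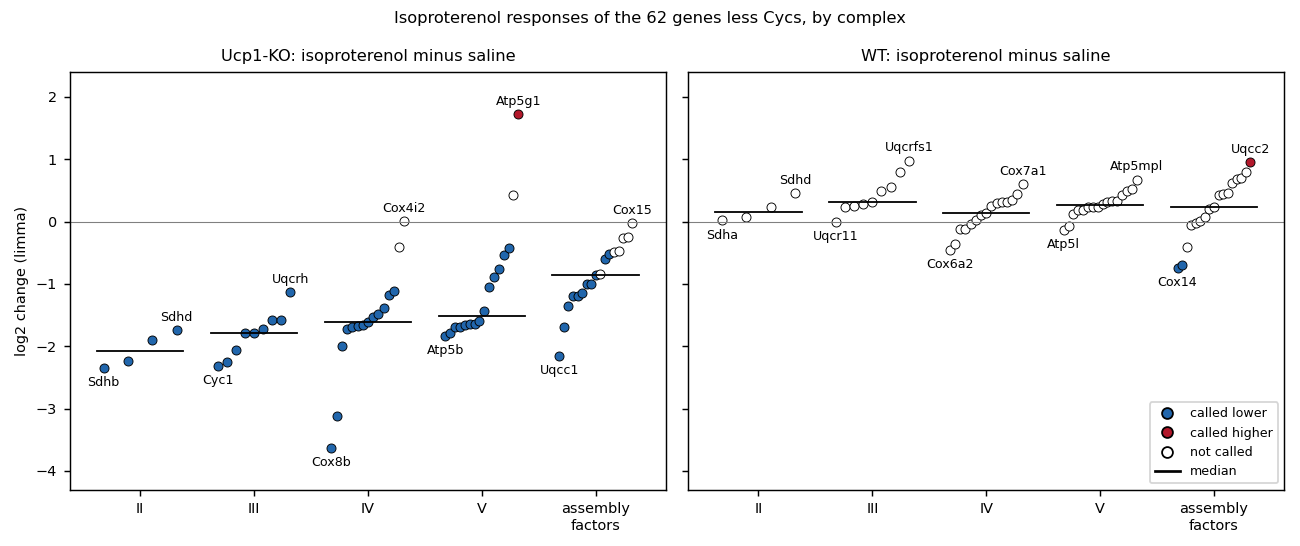
Log2 change of each member (points) under isoproterenol in KO (left) and WT (right), by complex, with the median of each class (line) and calls at an adjusted p under 0.05 over all genes coloured; cytochrome c is left out. Nearly all points lie below 0 in KO, from -3.63 for Cox8b to 1.72 for Atp5g1, and from -0.74 to 0.98 in WT.

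Under saline no difference between the genotypes was called in these genes. Against WT saline no member was called in KO saline by limma, and 1 of 62 had an unadjusted p under 0.05 (6 with only the 8 saline libraries fitted). Over all genes 0.0717% were called higher and 0.0261% lower. The median log2 difference was 0.03 and the range -0.64 to 0.62. Cox6b2, at the low end, had 7.83, 9.53, 8.74 and 7.75 CPM in KO saline and 10.3, 12.8, 15.3 and 14.7 CPM in WT saline (log2 difference -0.64, SE 0.25, adjusted p = 0.62). Its ratio to Cox6b1 was lower in every KO saline library, by 0.60 on the log2 scale, and in every WT isoproterenol library, by 0.65, each against WT saline (exact p = 0.0286, adjusted p = 0.1). For Atp5b the difference was 0.16 (SE 0.50) and for Cox8b -0.06 (SE 0.72), so differences of that size were not detectable here.

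Under isoproterenol most members were lower in KO. Of the 62 members 55 were lower in KO isoproterenol than in WT isoproterenol and 0 higher by limma, with 58 at an unadjusted p under 0.05, and 23.1% of all genes were called lower and 21.6% higher. The median log2 difference was -1.64. In 48 members, and in 18.3% of all genes, every KO isoproterenol library lay below every WT isoproterenol library. Of the 55 calls 51 held whichever library was left out, and those of Atp5j, Cox11, Cox16 and Sdhaf2 did not, with adjusted p up to 0.11. With only the 8 isoproterenol libraries in the limma fit, 8 of the 55 calls were lost, when 16% of all genes were called lower and 14.2% higher. These were Atp5b, Atp5j, Atp5l, Cox10, Cox11, Cox16, Cycs and Sdhaf2, with adjusted p of 0.053 to 0.147 in that fit. All subunits of complexes II and III were lower, as were Cycs, 13 of 15 subunits of complex IV, 14 of 16 of complex V and 14 of the 17 other factors. Cox8b and Cox7a1 differed most, by -3.70 (SE 0.72, adjusted p = 0.00089) and -3.65 (SE 0.68, adjusted p = 0.00065). Sdhb followed, at -2.48, and among the subunits of complex V Atp5k differed most, at -2.22 (adjusted p = 8.2e-05). The uncalled subunits were Cox4i2 (-0.48, adjusted p = 0.056), Cox6a2 (0.67, adjusted p = 0.76), Atp5g1 (0.95, adjusted p = 0.056) and Atp5g3 (0.08, adjusted p = 0.86).

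The difference of the responses, KO response minus WT response, was itself tested. By limma it was lower in 48 members and higher in 0, with 57 at an unadjusted p under 0.05, against 13.8% and 10.9% of all genes. The median was -1.65 over the members and 0.044 over all genes. It was called for all 4 subunits of complex II (median -2.23), all 9 of complex III (-2.28), 13 of 15 of complex IV (-1.60), 11 of 16 of complex V (-1.72) and 11 of the 17 other factors (-1.09), and not for Cycs (-1.62, adjusted p = 0.066, but -0.99 and 0.016 without KO isoproterenol replicate 1). Cox7a1 led with -3.72 (SE 0.96, adjusted p = 0.014), composed of a KO change of -3.12 and a WT change of 0.60. In Cox8b the value of -3.65 (SE 1.02, adjusted p = 0.019) came with a KO change of -3.63 and a WT change of 0.02. For Uqcrfs1 the value of -2.55 (SE 0.71, adjusted p = 0.019) was made of -1.57 in KO and 0.98 in WT, and for Uqcc2 that of -1.47 (SE 0.22, adjusted p = 0.00091) of -0.52 in KO and 0.95 in WT. Atp5g1 had 1.49 (adjusted p = 0.056). Of the 48 calls 36 held whichever library was left out. Those lost were Atp5a1, Atp5b, Cox10, Cox11, Cox18, Cox4i1, Cox6a1, Cox6b1, Cox6b2, Cox8a, Sdhaf3 and Uqcrh, with adjusted p up to 0.10. With the WT replicate numbers as a block 35 members were called lower, when 9.81% of all genes were called lower and 7.45% higher. The 13 calls lost under that block were those 12 and Cox6c, with adjusted p up to 0.092.

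Genes of the respiratory chain outside the name rule fell as well. Of 38 subunits of complex I, which feeds electrons from NADH, 37 fell and 0 rose in KO isoproterenol against KO saline (median -1.78), and 1 rose in WT. Beside the counts of this and the next lists, 24.8% of all genes were called lower and 23.8% higher in KO. In WT 8.98% were called lower and 7.6% higher. Of 27 measured assembly factors and small proteins of complexes III to V with other names, 19 fell and 1 rose in KO (median -1.01), and 4 rose and 1 fell in WT (0.25). The gene that rose in KO was Atpif1, the inhibitor of ATP hydrolysis by complex V. It had 25.6, 12.4, 22.2 and 10.4 CPM in KO isoproterenol and 5.91, 5.45, 8.60 and 8.33 CPM in KO saline (log2 change 1.25, adjusted p = 0.0048), and the groups did not overlap. Among 16 regulators of mitochondrial genes 9 fell and 2 rose in KO (median -0.58), and 0 were called in WT (median 0.11). Tfam, which packages mitochondrial DNA and starts its transcription, changed by -0.49 (adjusted p = 0.045) and the coactivator gene Ppargc1a by -0.42 (adjusted p = 0.75).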

How the data were processed

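Messenger RNA of interscapular brown adipose tissue was sequenced as 75-base single reads from a strand-marking kit, per the labels' protocols. What the authors deposited for 15350 genes in 16 libraries is log2 CPM, that is, counts per 1000000 reads on a log2 scale. The submitters' processing notes name STAR, limma and the build mm39; the tools' versions, the annotation, the counter and the low-count filter were not given in the sources used here. Taken as a power of 2, every deposited value equals a whole number of reads plus 0.5, scaled per library, within 1e-06, so reads were recovered and gave the depth. CPM printed here keep that 0.5. The shallowest library had 9004515 reads, and 3 reads come to 0.143 to 0.345 CPM.

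A count test had been planned in case of whole-number counts; for log2 values limma 3.58.1 (R 4.3.3) was used on the deposited values. The fit had 4 group means over 16 libraries (12 residual degrees of freedom) with a mean-variance trend, robust moderation and Benjamini-Hochberg adjustment over all genes; changes carry their standard error (SE) and levels the standard deviation (SD). Isoform ratios were compared by exact two-sided permutation tests. On simulated data at these depths, 72% of 100 genes changed 2-fold and 99% of 100 changed 4-fold were called for KO isoproterenol against KO saline (15350 genes). The simulation gave every group the same spread, whereas the real KO isoproterenol libraries varied more than those of the other groups. These shares therefore do not measure the power of that comparison.

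Named members were all Sdh subunits, Cyc1, Cycs and the isoforms; per comparison the 3 highest and 3 lowest calls, the largest and smallest change of each complex, calls against the majority, and the 3 largest changes among assembly factors. Esrra, Nrf1, Gabpa, Atpif1, Tfam and Ppargc1a were taken from the lists of other genes after their values were seen. The members and lists were chosen with earlier results of these data known. Groups follow the genotype and treatment characteristics; the treatment text of the saline samples describes isoproterenol, and 3 KO saline files carry another replicate number in their header than in the title, which was used. Gene symbols and transcripts came from GENCODE M21, of another build than the reads, with a symbol for 15320 genes. Promoter sequences are RefSeq's (GRCm38.p6); they were matched by symbol.

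Same-numbered WT libraries deviated together from their group means, isoproterenol with saline. The correlations were 0.210, 0.423, 0.234 and 0.535 for the numbers 1 to 4, each over 0.1, which was taken as a hint of pairing. In KO the correlations were 0.040, 0.149, 0.239 and 0.033, not all over 0.1, so the numbers were not taken to pair the KO libraries. Libraries of different numbers were not compared, so these values can neither show nor exclude a pairing in either genotype. Alternatives were other scalings, filters, weights, variance models, libraries in the fit, a muscle covariate, replicate blocks and leaving out each library.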

Additional observations from a re-analysis of the deposited data

Results flagged for a closer look

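By the test of the difference itself (KO response minus WT response, log2), the isoproterenol response was called different in 48 of the 62 members, where 13.8% of all genes were called lower and 10.9% higher. The 28 of these that the naming rule picked, partly for this value, follow. With the WT replicate numbers as a block the calls of Uqcrh, Cox8a, Cox6b1, Cox4i1, Cox6a1, Cox6b2, Atp5b, Cox10 and Cox11 among them were lost. In complex II the values were -2.59 for Sdhb, -2.26 for Sdha, -2.20 for Sdhd and -1.98 for Sdhc. In complex III they were -2.60 for Cyc1, -2.59 for Uqcrc2, -2.55 for Uqcrfs1, -2.05 for Uqcr11, -1.94 for Uqcr10 and -1.69 for Uqcrh. In complex IV the heart and muscle isoforms Cox7a1 and Cox8b had -3.72 and -3.65, and their liver counterparts Cox7a2 and Cox8a had -1.56 and -1.57. The values were -1.78 for Cox6b1, -1.77 for Cox4i1, -1.60 for Cox6a1 and -1.03 for Cox6b2. In complex V they were -2.22 for Atp5k, -2.12 for Atp5b, -1.93 for Atp5o and -1.43 for Atp5mpl. Among the other factors they were -2.11 for Uqcc1, -1.71 for Cox10, -1.53 for Cox11, -1.47 for Uqcc2, -1.40 for Uqcc3 and -0.99 for Atp5s.

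A library far from the 3 others of its group was found in 5 of 208 groups of values checked, where chance gives about 1 in 20. Sdhd was highest in KO saline replicate 2, at 1244 CPM. Cox6b2 was lowest in KO isoproterenol replicate 1, at 1.74 CPM. Cox19, which serves copper delivery to complex IV, was highest in WT saline replicate 3, at 59.5 CPM. The score over all members was lowest in WT saline replicate 1, at 0.13. The log2 ratio of Cox4i2 to Cox4i1 was highest within KO saline in replicate 1, at -7.71.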

How the results depend on the processing

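No log2 change or difference of a member turned its sign past a threshold under any alternative. The number of members higher in WT isoproterenol moved most, against 1 in the fit of 16 libraries. It was 2 with plain library totals, 13 with weights per group, 21 with the 8 WT libraries alone, 2 with the replicate block, 21 with the replicate block in the 8 WT libraries (added after seeing the data), and 1 to 7 when 1 library was left out. The number over all 15350 genes moved too, against 1167 in the fit of 16 libraries. In the same order it was 770, 2497, 2501, 1085 and 2651, and 730 to 1770 when 1 library was left out. A replicate block within WT, also added later, gave 1 member higher and 2 lower in WT isoproterenol, when 830 and 1035 of all genes were. It gave 35 lower for the difference of the responses. The replicate block over all libraries moved no other count by more than 1.5 times. Members higher numbered 1 to 2 for KO isoproterenol against KO saline when 1 library was left out. Against WT isoproterenol the number higher in KO isoproterenol was 1 with library totals, 1 with the muscle score as covariate and 0 to 1 without 1 library. For the difference of the responses it was 1 with library totals and 0 to 1 without 1 library, in each case Atp5g1. The median of the assembly factors in KO isoproterenol against KO saline ran from -1.18 to -0.53 without 1 library. With its assembly factors the median of complex II was -1.47 in that comparison and -1.65 for the difference of the responses. With library totals the median of all genes was 0.18 for KO isoproterenol against KO saline, where it was -0.002 with the deposited values; it was 0.272 for KO against WT under isoproterenol and 0.339 for the difference of the responses. The calls over all genes then split into 4493 higher and 2939 lower, against 3647 and 3813 with the deposited values for KO isoproterenol against KO saline, while 49 members were lower. In the fits that left out 1 library of a group of 4, the remaining 3 carried it. The cause of these changes was not tested. Depth limits low genes such as Cox16, with 35 to 91 reads per library, and the 14 members whose transcripts share over 5% of their 75-base windows with other genes, Cox16 with 73.0% and Atp5l with 63.4% among them, are uncertain at any depth.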
